A study of Homo sapiens with 24 samples.

Results

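The middle and the late part of the first cell cycle of K562 cells were compared by gene expression: 6 of the 24 libraries of a time series, chosen by the hours on their labels. The middle window held the libraries of 8, 10 and 12 h after elutriation and the late window those of 20, 22 and 24 h. The libraries of 16 and 18 h lie between the windows, are named as irregular in the study, and were left out of the comparison. All libraries came from K562, an established suspension line of human leukaemic origin that makes globins and other red cell proteins. The cells carried no added treatment or genotype. They were grown in RPMI medium with 10% bovine calf serum and penicillin and streptomycin, sorted by size in a centrifuge (elutriation) to start from a synchronous population, and sampled every 2 h from 0 to 46 h. Total RNA was taken by acid phenol and sequenced, with 1 library per time point. Consecutive time points of a culture are not replicates, so no p-value is given: each window is described by its 3 values, and their lowest and highest stand in for an error. In bulk RNA, fewer cells in a phase and less RNA per cell cannot be told apart.

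As a cell passes from DNA replication into G2 and mitosis, it makes the proteins of cell division: cyclin B with its kinase CDK1, the PLK1 and Aurora kinases, the kinesins and other spindle proteins, and the activators of the anaphase-promoting complex (APC/C), the ubiquitin ligase that destroys cyclin B. Many of these genes are known to be kept low early in the cycle through a promoter element called CHR, bound by the DREAM and MuvB complexes, and to be driven in G2 through CCAAT boxes bound by NF-Y. CCNB1, which encodes cyclin B1, was used as the marker of the late window.

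The promoters of 4 mitotic genes with higher levels in the late window are printed to show these letters where they lie near a start site. They are the 150 bases before the start of HMMR (chr5:163460482-163460631, plus strand), DEPDC1 (chr1:68497083-68497232, minus strand), PLK1 (chr16:23678739-23678888, plus strand) and CENPA (chr2:26785906-26786055, plus strand) in the RefSeq annotation of GRCh38.p14, read 5′ to 3′ along the gene. Capitals mark the CHR letters TTTGAA, which read TTCAAA where they lie on the other strand, and the CCAAT box, which there reads ATTGG.
HMMR: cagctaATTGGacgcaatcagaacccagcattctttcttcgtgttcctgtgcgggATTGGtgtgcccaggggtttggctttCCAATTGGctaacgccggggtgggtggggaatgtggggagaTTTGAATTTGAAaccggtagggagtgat
DEPDC1: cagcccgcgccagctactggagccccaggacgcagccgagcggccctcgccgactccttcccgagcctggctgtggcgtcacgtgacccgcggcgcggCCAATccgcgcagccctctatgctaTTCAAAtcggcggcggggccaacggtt
PLK1: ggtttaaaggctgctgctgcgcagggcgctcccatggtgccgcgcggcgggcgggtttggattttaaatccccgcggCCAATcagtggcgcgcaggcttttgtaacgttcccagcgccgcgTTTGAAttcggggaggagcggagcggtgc
CENPA: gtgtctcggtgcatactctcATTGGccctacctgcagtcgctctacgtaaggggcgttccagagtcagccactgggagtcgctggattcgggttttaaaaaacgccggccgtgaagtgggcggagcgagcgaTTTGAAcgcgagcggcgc
Each of the 4 stretches held both motifs, but the genes were chosen for holding them, largest difference first, so this is no result. KIF20A, PSRC1 and CENPE had larger differences than DEPDC1, PLK1 and CENPA but did not hold both, and were passed over. In HMMR, 2 copies of TTTGAA stood head to tail and 2 of its CCAAT letters shared bases, so neighbouring capitals run together. A match of letters describes the sequence and shows no binding.

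CCNB1 went with the label of the windows. Its FPKM was 103, 124 and 133 in the middle window (8, 10 and 12 h, in that order here and below) and 235, 237 and 182 in the late one (20, 22 and 24 h). All late values stood above all middle values, and the ratio of the window means was 1.82 (0.86 on the log2(FPKM + 1) scale, used for every difference below). The erythroid identity of the cells was seen in both windows: GATA1, the erythroid transcription factor, lay between 104 and 146 FPKM, and HBG2, a fetal globin, between 1911 and 3141 FPKM. Of the markers of other cell types, 3 of 11 fibroblast, 1 of 12 lymphoid, 1 of 11 granulocyte and monocyte and 2 of 11 megakaryocyte and platelet genes could be tested. The summed FPKM of the fibroblast markers was 9.18 to 12.7 in the middle and 13 to 13.5 in the late window. That of the lymphoid list (CD3D) was 4.2 to 5.92 and 5.38 to 5.78, and that of the granulocyte and monocyte list (LYZ) 11.8 to 13.5 and 16.7 to 22.2. The other genes of these lists, among them COL1A1, MPO and PF4, were not tested.

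One of the 6 libraries stood apart. At 22 h, 409 genes differed at least 1.5-fold from the mean of the neighbouring libraries of 20 and 24 h, against 136 to 244 genes at 8, 10, 12 and 24 h (20 h was not computed, as its neighbour is an irregular library). At 22 h the median deviation was 0.09 for the 20% of genes with the lowest GC content and -0.09 for the 20% with the highest. The summed FPKM of the 6 libraries ran from 464697 (24 h) to 503962 (22 h). Leaving this library out gave 164 higher and 76 lower genes in place of the 186 and 100 described next, and values that rest on it are given with and without it.

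Of 12285 genes in the table, 12114 averaged 1 FPKM or more over the 6 libraries and were compared. A gene was called higher or lower in the late window when the window means of log2(FPKM + 1) differed by at least the log2 of 1.5 and the 3 late values all stood above, or all below, the 3 middle values. By this rule 186 genes (1.54% of those compared) were higher and 100 (0.825%) were lower. The median difference of all compared genes was 0.01 and the median size of a difference 0.14, so most genes kept close to their middle level. Without the fold threshold, 21.4% of all genes had late values entirely above and 19.8% entirely below the middle ones, so a lack of overlap alone marked many genes with small differences. At a 2-fold threshold 15 genes were higher and 14 lower. Of the 186 genes called higher, 122 were protein-coding, 20 were lincRNAs and 14 antisense RNAs. Of the 100 called lower, 79 were protein-coding. Strand use in counting was not given in the sources used here, so reads of an antisense RNA and of its partner gene could not be separated. Just inside the threshold lay SYNJ2BP-COX16 (0.59) and PCBP1 (-0.59), and just outside it PSPH (0.58) and CTU2 (-0.58).

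**Figure D1:**
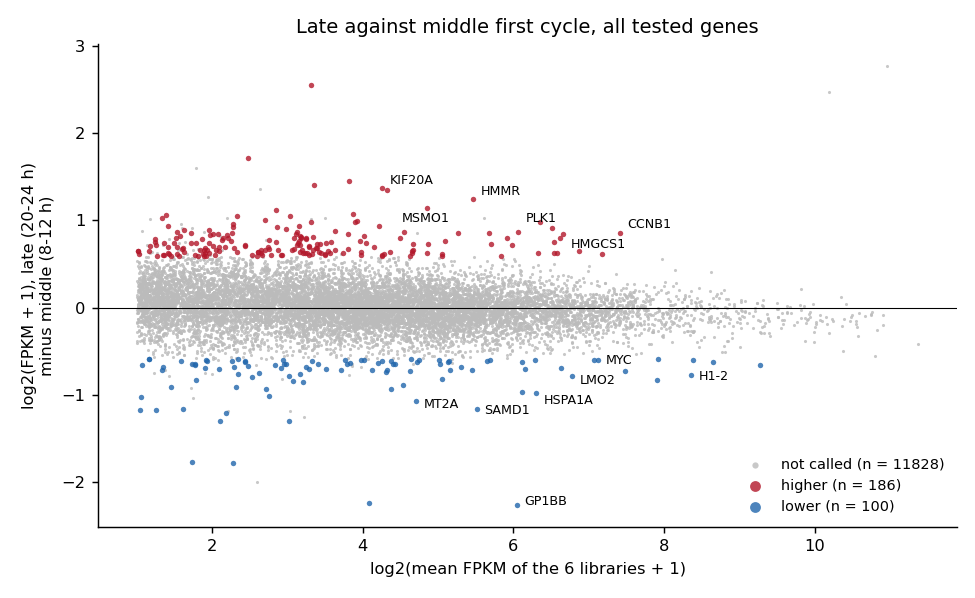
Difference in log2(FPKM + 1), late (20, 22 and 24 h) minus middle (8, 10 and 12 h), against the mean level of the 6 libraries on a log2 axis, for 12114 genes. Red points are the 186 genes called higher, blue points the 100 called lower and grey points the rest, and KIF20A and HMMR stand among the highest of the genes above 10 FPKM.

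Cell division genes made up much of the top of the list. Of the 12 protein-coding genes with the largest positive difference at a mean of at least 10 FPKM, 8 came from the lists of mitotic genes: KIF20A, HMMR, PSRC1, CENPE, DEPDC1, PLK1, AURKA and CCNB1. Over 7 such lists with 126 distinct genes, 20 were called higher and 1 lower, against 1.54% and 0.825% of all genes. The difference was positive in 94 and negative in 32 of the 126, with a median of 0.22. Without the 22 h library 17 of the 126 were called higher and the median was 0.20.

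Among the G2/M cyclins, CDK1 and their partners, 2 of 9 genes were called higher, CCNB1 and CDC25B, and all 9 differences were positive (median 0.41). CDC25B, a phosphatase that activates cyclin-dependent kinases, had 8.86, 10.2 and 10.2 FPKM in the middle and 17, 16.4 and 14.7 FPKM in the late window (difference 0.67). CCNB2, the second B-type cyclin, just missed the fold threshold at 0.56, with 45.1 to 57.5 FPKM in the middle and 73.6 to 78.9 FPKM late. CDK1, the kinase that these cyclins activate, differed by 0.14, and its windows overlapped. CCNA2, the cyclin of S phase and G2, differed by 0.29 with no overlap. The regulatory cyclin thus differed more between the windows than the kinase subunit.

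Of 14 mitotic kinases and their regulators 5 were called higher: PLK1, AURKA, GTSE1, BORA and PBK, of which GTSE1 was not called without 20 h (0.54). PLK1, the Polo-like kinase of mitotic entry, had 42.8, 48.1 and 47.7 FPKM in the middle window and 94.4, 89.5 and 71.9 FPKM in the late window, 1.85-fold apart in the means. AURKA, the centrosomal Aurora kinase, went from 32.2, 34.5 and 39.1 FPKM to 70.9, 72.6 and 52.3 FPKM, also 1.85-fold. For both genes the 24 h value was the lowest of the late ones and still above every middle value. BORA, which activates AURKA toward PLK1, had 8.46, 7.80 and 7.55 FPKM against 12.6, 14.9 and 10.7 FPKM (0.61), and was not called without the 22 h library (0.49) or without 12 h (0.57). AURKB, the Aurora kinase of the centromere, differed by -0.01, and PKMYT1, an inhibitory kinase of CDK1, by -0.38. The checkpoint kinases BUB1 (0.45) and TTK (0.34) lay between these values and were not called.

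In the APC/C list the called members were an activator and a substrate, and no subunit of the enzyme. CDC20, the mitotic activator, had 40.4, 41.9 and 47.0 FPKM in the middle and 78.4, 78.3 and 70.2 FPKM in the late window (0.80). PTTG1, the securin that the complex destroys at anaphase, had 66.6, 71.0 and 75.3 FPKM against 119, 136 and 117 FPKM (0.79). Both genes stood above all their late values at 0 h, CDC20 at 111 FPKM and PTTG1 at 165 FPKM. The other 18 of the 20 tested members were not called and lay between -0.40 and 0.25, among them FZR1, the activator used after mitosis (-0.20). The list's median was -0.03.

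Spindle and cytokinesis genes all leaned one way. All 24 differences were positive, between 0.17 and 1.24 with a median of 0.30, and 6 genes were called: HMMR, PSRC1, DEPDC1, ASPM, CEP55 and DLGAP5. HMMR, a spindle pole protein and hyaluronan receptor, had 22.7, 25.6 and 27.4 FPKM in the middle window and 57.8, 70.0 and 55.6 FPKM late, 2.42-fold higher. PSRC1, a microtubule-binding protein of the spindle, had 7.26, 7.72 and 10.0 FPKM against 20.2, 21.7 and 14.5 FPKM (1.08). ASPM, which organises spindle poles, had 17.5, 17.4 and 19.5 FPKM against 32.8, 32.3 and 27.4 FPKM (0.73). TPX2, which activates AURKA on the spindle, and PRC1, which bundles the midzone microtubules, had smaller differences of 0.31 and 0.24. The summed FPKM of the 24 genes was 832 to 909 in the middle and 1013 to 1205 in the late window.

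Of 13 mitotic kinesins, the motors of the spindle, 3 were called higher. KIF20A, a kinesin of the central spindle and cytokinesis, had the largest positive difference of any protein-coding gene at 10 FPKM or more: 8.24, 9.43 and 11.2 FPKM in the middle and 28.4, 29.5 and 21.4 FPKM late, 2.75-fold. CENPE, the kinetochore motor that aligns chromosomes, had 7.85, 9.53 and 10.2 FPKM against 20.3, 20.7 and 16.7 FPKM (0.99). KIF18A, which shortens kinetochore microtubules, had 7.88, 7.93 and 8.23 FPKM against 14.4, 13.5 and 11.5 FPKM (0.65), and was not called without 20 h (0.58). KIF11, the motor that separates the poles, was not called (0.25), and KIF22, a chromosome-arm motor, had a difference of -0.25. The kinesins thus ranged from 1.37 down to slightly below 0.

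Centromere and kinetochore genes differed less as a group, with 2 of 32 called and a median of 0.10. CENPA, the histone H3 variant that marks centromeres, had 13.4, 15.3 and 17.3 FPKM in the middle window and 34.8, 25.6 and 23 FPKM late (0.80). CENPF, a large kinetochore protein, had 33.3, 38.8 and 41.8 FPKM against 61.1, 76.6 and 54.0 FPKM (0.73). The values of NDC80 (0.54) and SGO2 (0.50) came next, while ZWINT stood at -0.38. In the condensin, cohesin and topoisomerase II list no gene of 15 was called higher: TOP2A, the topoisomerase of chromosome condensation, stood at 0.29 and the condensin subunit SMC4 at 0.16. STAG1, a cohesin subunit, was the 1 mitotic-list gene called lower, with 10.7, 11.1 and 10.1 FPKM in the middle and 6.43, 6.64 and 5.70 FPKM late (-0.68).

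**Figure D2:**
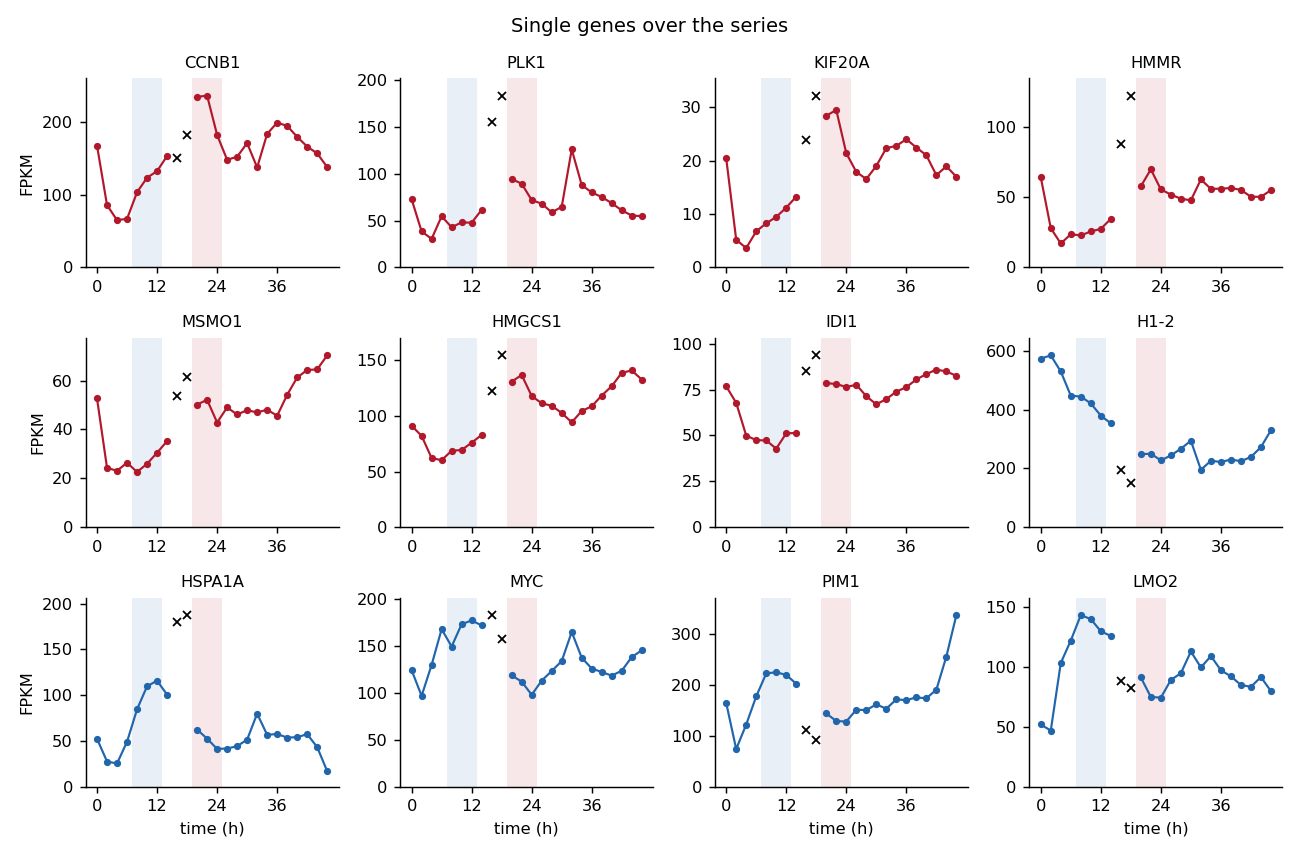
FPKM of 12 genes at each of the 24 time points, on linear axes from 0, red for genes called higher and blue for genes called lower late. Blue shading marks the middle and red shading the late window, crosses the libraries of 16 and 18 h, and CCNB1 climbs from 65 FPKM at 4 h to 237 FPKM at 22 h.

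Outside the windows the mitotic genes were still changing. All 20 called genes had their lowest late value at 24 h, and at 26 h 17 of them lay below all late values while all 20 remained above all middle values. At 14 h, 18 of the 20 already lay above all middle values. Their median difference from the 8 to 12 h mean was -0.44 at 4 h and 0.34 at 14 h, and in the late window it was 0.84, 0.89 and 0.59. In the 16 and 18 h libraries it was 0.97 and 1.23, and at 0 h it was 0.50. It was 0.54 at 26 h and 0.45 to 0.72 from 28 to 46 h. These genes were chosen for their late level. Over all 126 mitotic-list genes the median was 0.25, 0.31 and 0.13 in the late window and 0.24 at 32 h. The 161 called genes outside the mitotic and cholesterol lists were timed differently: 49 had their lowest late value at 24 h, and at 26 h 55 lay below and 29 above all late values. For all 186 genes called higher the median was 0.54 at 0 h and 0.59 to 0.83 from 26 to 46 h. For the 100 called lower it was -0.54 at 0 h and -0.41 to -0.68 from 26 to 46 h. Most called genes thus did not return to their middle level.

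**Figure D3:**
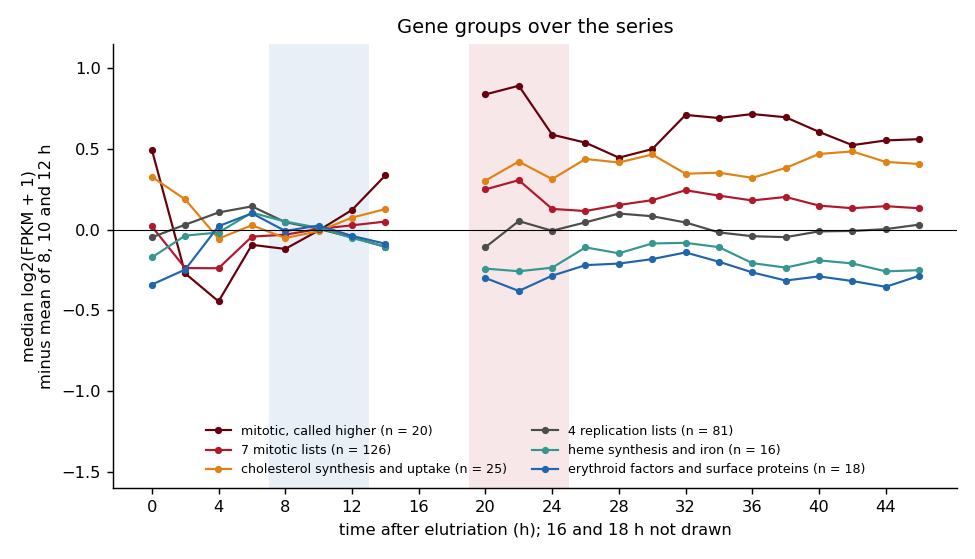
Median over the genes of a list of log2(FPKM + 1) minus its mean at 8, 10 and 12 h, against time after elutriation. Shading marks the windows, the libraries of 16 and 18 h are not drawn, and the 20 mitotic genes called higher (dark red) reach 0.89 at 22 h.

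DNA replication genes held no calls. The 81 distinct genes of 4 lists covered the MCM helicase and origin licensing, the polymerases, deoxynucleotide supply and the replication checkpoint. Of them 0 were called in either direction, against 1.54% higher and 0.825% lower of all genes, and the median was -0.04. At such small shares, a count of 0 does not set these genes apart. Differences were negative in 16 of 22 polymerase genes and 10 of 12 deoxynucleotide supply genes. They were positive in 17 of 26 helicase and licensing genes and 12 of 21 checkpoint genes. With limma and time points taken as if they were replicates, 3 of the 81 were higher (8.40% of all genes) and 9 lower (8.02% of all genes) at an adjusted p of at most 0.05. PCNA, the sliding clamp of the polymerases, had 232, 220.1 and 211 FPKM in the middle and 184, 186 and 208 FPKM in the late window (-0.20). MCM7, a subunit of the replicative helicase, had 351, 344 and 312 FPKM against 259, 295 and 273 FPKM (-0.28). Both were lower at every late time point, by less than 1.5-fold. CCNE2, a G1/S cyclin, had a difference of 0.44 and RBL1, a pocket protein of the E2F network, of -0.48, and none of the 25 genes of the G1/S list was called. Among 6 inhibitors of cyclin-dependent kinases 1 was called higher, against 1.54% of all genes. It was CDKN3, a phosphatase that acts on CDK1 and CDK2 (0.64). Its levels were 20.3, 17.5 and 18.4 FPKM in the middle and 28.6, 29 and 31.7 FPKM late.

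Replication-dependent histones, which package new DNA and whose main transcripts lack a poly(A) tail, leaned higher, though their calls were split. Of 25 genes tested 19 differences were positive and 6 negative, with a median of 0.25. Late values lay entirely above the middle ones in 14 and entirely below in 3 (21.4% and 19.8% of all genes). Calls were 2 higher (H2AC11 and H4C9) and 3 lower (H4C3, H1-2 and H2AC8), against 1.54% and 0.825% of all genes. H1-2, a linker histone and by far the most abundant of the 5, had 444, 421 and 379 FPKM in the middle window and 248, 249 and 227 FPKM late (-0.78). H2AC11, a core histone gene, had 5.11, 4.92 and 5.08 FPKM against 8.80, 10.8 and 12.5 FPKM (0.94). Core histone genes are near-identical copies, so the split of reads between them is uncertain. The summed FPKM of the list, set largely by H1-2, was 662 to 756 in the middle and 557 to 599 late, the opposite direction to the median gene.

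Of 25 genes of cholesterol synthesis and uptake 5 were called higher and 0 lower, against 1.54% and 0.825% of all genes. In this list 22 differences were positive, 20 genes had late values entirely above the middle ones (21.4% of all genes did), and the median was 0.33. MSMO1, a sterol C4-methyl oxidase, had 22.6, 25.9 and 30.5 FPKM in the middle and 50.2, 52.2 and 42.8 FPKM in the late window, 1.84-fold. HMGCS1, the synthase that makes HMG-CoA for the pathway, had 68.7, 69.4 and 75.9 FPKM against 131, 137 and 118 FPKM, 1.80-fold. IDI1, an isomerase of the isoprenoid steps, had 47.3, 42.8 and 51.2 FPKM against 78.6, 78.1 and 76.5 FPKM (0.71). STARD4, a sterol carrier, was also called (0.62). The genes of the regulators SREBF1 and SREBF2, which encode the sterol-sensing transcription factors, both stood at -0.02. Without the 22 h library 5 genes were still called and the median was 0.31. The list's median difference was 0.44 at 26 h, against 0.30 to 0.42 in the late window. That of the 7 mitotic lists was 0.13 at 24 h, 0.11 at 26 h and 0.13 to 0.24 from 28 to 46 h. The cholesterol median was also 0.33 at 0 h and stayed between 0.32 and 0.48 from 28 to 46 h, so it was not particular to the late window.

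Erythroid genes had small negative differences, and 2 were called lower. All 18 erythroid factors and surface proteins were on the negative side (median -0.31), and the late values of 15 lay entirely below the middle ones, against 19.8% of all genes without overlap and 0.825% called lower. LMO2, a scaffold of erythroid transcription complexes, had 143, 139.6 and 129 FPKM in the middle and 91.0, 74.8 and 74.2 FPKM in the late window (-0.78). SLC4A1, the band 3 anion exchanger of red cells, had 11.7, 11 and 10.5 FPKM against 6.87, 6.70 and 5.82 FPKM (-0.70). GATA1 stood at -0.38 and KLF1, an activator of globin genes, at -0.47, neither called but both without overlap. Of 16 heme and iron genes 15 had negative differences (median -0.27), 12 did not overlap, and 0 were called. These medians were -0.30 and -0.24 without the 22 h library.

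Among the globins 8 of 9 differences were negative (median -0.39), and HBA1 and HBA2 were called lower (0.825% of all genes were). After a trend with GC content was removed from each library, 0 of the 9 were called and the median was -0.38. HBA1, an alpha globin gene, had 708, 777 and 748 FPKM in the middle window and 595, 326 and 539 FPKM late (-0.66). HBA2, its near-identical copy, had 369, 428 and 394 FPKM against 323, 195 and 284 FPKM (-0.60), and the assignment of reads to the pair is uncertain. For both genes the 22 h value was the lowest, and without it both differences were -0.39 and neither was called. HBA2 also lost its call without 10 h (-0.54). The summed FPKM of the globins was 7728 to 8351 in the middle and 5379 to 6636 in the late window.

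Growth-factor response and heat shock lists also held genes called lower. Of 20 immediate early and growth factor response genes, 3 were called lower (0.825% of all genes) and the median was -0.18. After a trend with GC content was removed from each library, 1 of the 20 was called lower. PIM1, a kinase induced by cytokine signalling, had 223, 225 and 219.6 FPKM in the middle and 144, 129 and 128 FPKM in the late window (-0.73). MYC, the growth-promoting transcription factor, had 149.5, 173 and 177 FPKM against 119, 112 and 98.1 FPKM (-0.60). It lost its call in 5 of 10 alternatives, among them leaving out 10 h (-0.57), 12 h (-0.55) or 24 h (-0.52). JUND, an AP-1 subunit, had 67.5, 58.7 and 55.7 FPKM against 46.9, 28.0 and 47.2 FPKM (-0.60), which was -0.35 without 22 h and -0.52 without 8 h and then not called. In the heat shock list 2 of 15 were called lower (0.825% of all genes), also after removal of the GC trend, and the median was -0.04. HSPA1A, an inducible HSP70, had 84.5, 109.7 and 116 FPKM against 62.5, 52.5 and 41.3 FPKM (-0.98). HSPA1B, its near-identical copy, had 85.3, 97.7 and 89.2 FPKM against 56.5, 41.1 and 41.4 FPKM (-0.97), and reads of the pair could be split between them. The constitutive HSPA8 stood at -0.09 and HSP90AA1 at -0.06, so the 2 inducible HSP70 genes stood apart from the rest of their list.

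In the integrated stress response and serine synthesis list (23 genes, median 0.07), 1 gene was called higher and 1 lower. Of all genes, 1.54% were called higher and 0.825% lower. PSAT1, the aminotransferase of serine synthesis, was called higher at 53.8, 61.2 and 71.9 FPKM against 99.4, 101 and 87.2 FPKM (0.62). PHGDH, the first enzyme of the pathway, and PSPH, the last, stood at 0.51 and 0.58 and were not called. CEBPB, a transcription factor of the stress response, was called lower with 23.2, 25.7 and 24.7 FPKM against 22.9, 8.13 and 18.9 FPKM (-0.65). That call rested on the 22 h library, without which the difference was -0.23, and PSAT1 lost its call without it (0.58), without 8 h (0.52) and after the GC trend was removed. ATF4, the central factor of the response, stood at -0.16.

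Lists of general metabolism held few called genes, where 1.54% of all genes were called higher and 0.825% lower. Single calls or none, at these shares, do not set a list apart. SLC2A3, a glucose transporter, was the 1 called of 21 glycolysis genes, with 17.7, 20.7 and 22.7 FPKM against 29.6, 50.7 and 26.9 FPKM (0.73). Without its high 22 h value the difference was 0.46 and the call was lost. Glycolysis as a whole had a median of -0.15, with GAPDH at -0.26. WARS1, the tryptophanyl-tRNA synthetase, was the 1 called of 20 synthetases (0.62, but 0.54 without 22 h and 0.57 without 8 h, no longer called). Cytosolic ribosomal proteins had 68 of 79 negative differences, 0 called and a median of -0.13, and nucleolar assembly genes a median of -0.15. The lists of endoplasmic reticulum chaperones (-0.08), hypoxia (-0.08), lysosome (0.00), polyamine (0.04), nuclear-retained long RNA (0.04) and small nucleolar RNA host genes (-0.12) held 0 called genes. The 5 mitochondrially encoded genes tested had a median of 0.45, which was -0.04 without the 22 h library.

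**Figure D4:**
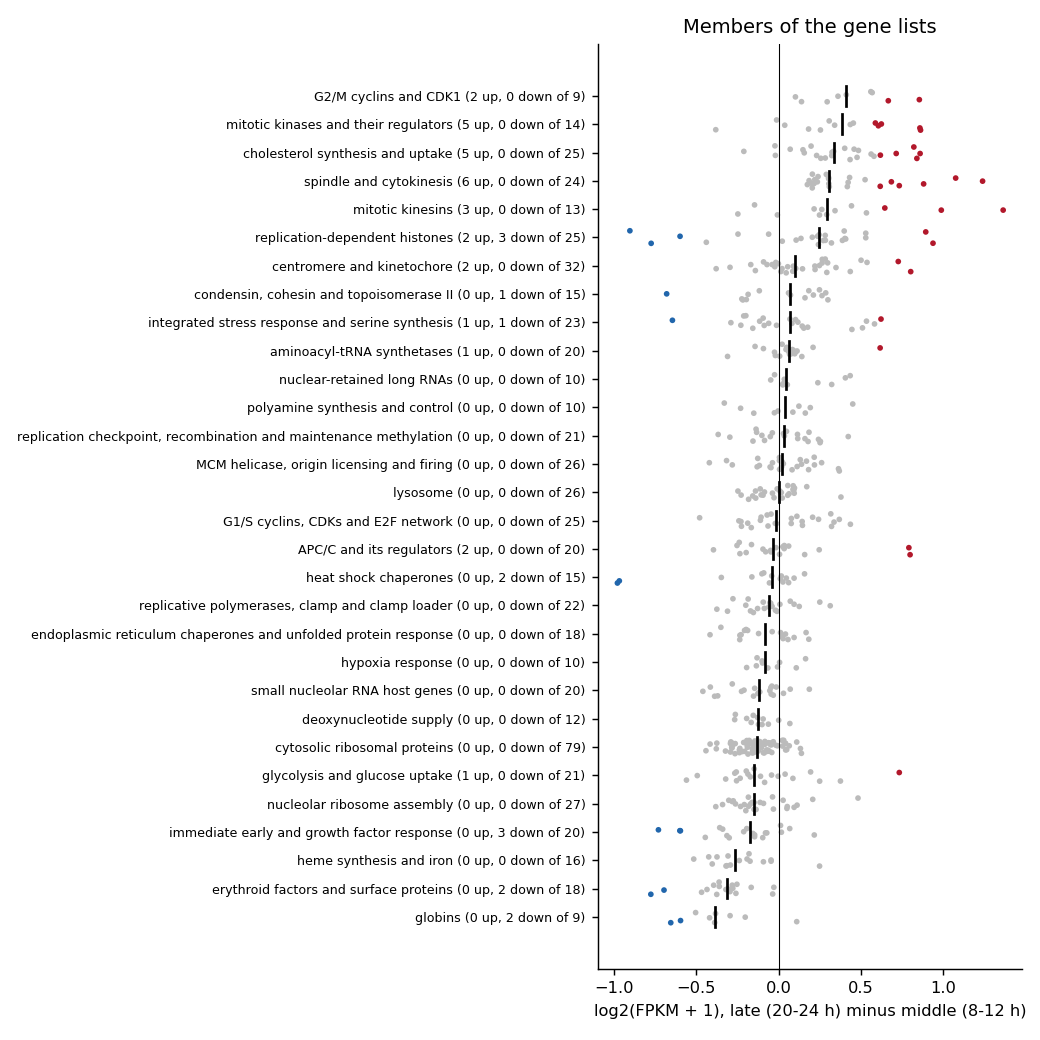
Difference in log2(FPKM + 1), late minus middle, for each member of 30 gene lists, 1 point per gene, with a black bar at the list's median. Red points were called higher, blue points lower and grey points neither, and all points of the spindle and cytokinesis list lie above 0 while all points of the erythroid list lie below.

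The remaining genes with large differences had no list in common. PRR11, a proline-rich protein of mitotic progression, had 15.0, 16.8 and 19.3 FPKM in the middle and 35.4, 44.9 and 36.2 FPKM in the late window, 2.28-fold. OR51B5, an olfactory receptor gene, had 53.6, 53.0 and 54.3 FPKM against 95.4, 114 and 112 FPKM, 2.00-fold. IL23R, a cytokine receptor, had 7.86, 9.82 and 9.26 FPKM against 14.5, 19.9 and 16.6 FPKM (0.84). OR51B5 differed from the mitotic genes in staying at 115 FPKM at 26 h.

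On the lower side, SAMD1, a chromatin protein that binds unmethylated CpG islands, had 66.8, 63.5 and 56.1 FPKM in the middle and 30.9, 22.5 and 28.5 FPKM in the late window (-1.17). MT2A, a metallothionein that binds zinc and copper, had 36.2, 36.1 and 30.1 FPKM against 20.1, 13.7 and 14.1 FPKM (-1.07). AMH, the anti-Müllerian hormone, had 27.7, 25.9 and 24.5 FPKM against 15.6, 10.0 and 14.3 FPKM (-0.94). For these 3 genes the 22 h value was the lowest, and without it the differences were -1.04, -0.97 and -0.76. JMJD8 (-0.89), FAM174C (-0.82) and FAXDC2 (-0.74) completed the protein-coding genes with large negative differences that kept their call without the 22 h library. GP1BB, the beta chain of platelet glycoprotein Ib, had 82.7, 83.2 and 81.4 FPKM against 73.9, 0.00107 and 69.7 FPKM. Its difference of -2.26 rested on the near-zero 22 h value and was -0.20 without it. Of the other megakaryocyte marker tested, ITGA2B, the integrin of the platelet fibrinogen receptor, the levels were 1.41, 0.926 and 1.12 FPKM against 2.68, 2.88 and 2.82 FPKM (0.82).

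Base composition differed between the called groups. The median GC content of transcripts was 46.7% for the genes called higher, 58.9% for those called lower and 47.8% for all compared genes. The median for the 20 called mitotic genes was 42.3%. Among the 20% of genes with the highest GC content 31 were called higher and 53 lower, and among the 20% with the lowest 44 were higher and 5 lower. The median difference went from 0.08 in the lowest 20% to -0.09 in the highest, and from 0.04 to -0.06 without the 22 h library. After a smooth trend with GC content was removed from each library, 178 genes were higher and 69 lower, of which 148 and 61 had been called before. The part of base composition in the lower genes was not tested further.

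The libraries of 34, 36, 44 and 46 h entered none of these calls. They lie 24 h after those of 10, 12, 20 and 22 h, and the library of 32 h, named as mildly irregular, was left out. Of the 186 genes called higher, 131 (70.4%) also had a higher mean at 44 and 46 h than at 34 and 36 h, against 47.7% of all compared genes. Of the 100 genes called lower, 70 (70.0%) were also lower, against 52.3% of all genes. Genes of a library are not independent, so these shares are a description. By the same call rule 11 of the 186 were called higher again (1.30% of all genes) and 3 were called lower (0.471% of all genes). Of the 100, 4 were called lower again and 3 were called higher.

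The mitotic genes did not share this pattern. Of the 20 called higher in the first cycle, 17 had a negative and 3 a positive difference 24 h later, with a median of -0.13, whereas the 5 called cholesterol genes all had positive ones (median 0.39). PLK1 had 88.0 and 80.2 FPKM at 34 and 36 h and 55.4 and 54.7 FPKM at 44 and 46 h (-0.60). CCNB1 had 184 and 199.5 FPKM and then 157 and 138 FPKM (-0.38). Over all 126 mitotic-list genes 86 differences were negative 24 h later. The highest CCNB1 value after 24 h was that of 36 h.

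HSPA1A and HSPA1B were lower again 24 h later, from 56.7 and 57.6 FPKM to 43.3 and 17 FPKM for HSPA1A (-1.04) and by -1.19 for HSPA1B. All 15 genes of the heat shock list had negative differences then, with a median of -0.26. MSMO1 was again higher, from 48.1 and 45.6 FPKM to 64.6 and 70.4 FPKM (0.52). H1-2, lower in the first comparison, had a positive difference of 0.42, as all 25 tested histones were positive then (median 0.54). PIM1 also turned, from 172 and 170.2 FPKM to 256 and 337 FPKM (0.78).

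**Figure D5:**
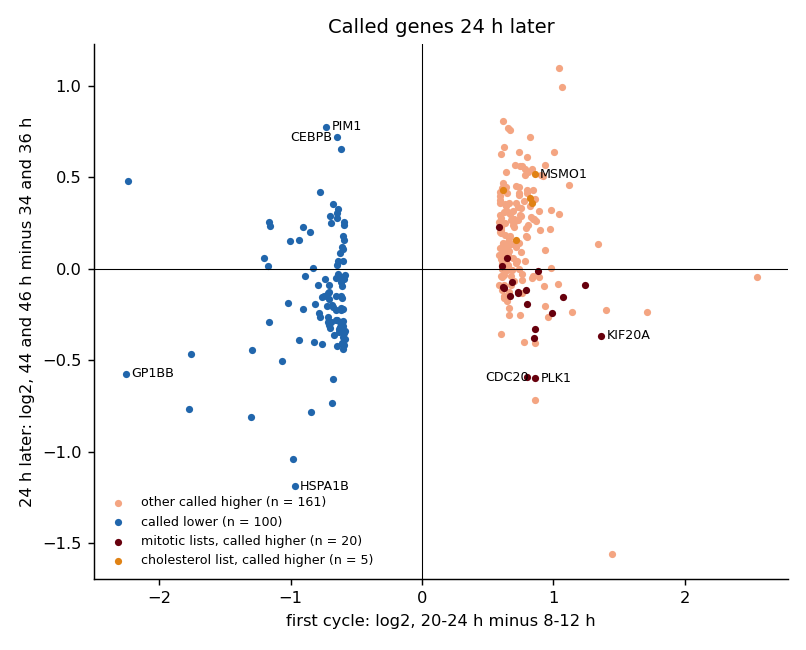
Difference of the first cycle (20, 22 and 24 h minus 8, 10 and 12 h) on the horizontal axis against the difference 24 h later (44 and 46 h minus 34 and 36 h) on the vertical axis, both in log2(FPKM + 1), for the 286 called genes. The 5 cholesterol genes (orange) lie above 0 on the vertical axis, and 17 of the 20 mitotic genes (dark red) lie below.

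The promoter letters printed above were counted in the 300 bases from 250 before to 50 after the RefSeq start, on either strand. Of all 27305 RefSeq promoters, 15.4% held TTTGAA, 35.7% held CCAAT and 6.08% held both, and of 8501 compared protein-coding genes with a promoter 9.27%, 37.8% and 4.27% did. Of 88 protein-coding genes called higher with a promoter, 26.1% held TTTGAA, 56.8% CCAAT and 20.5% both. Of 62 called lower, 4.84%, 27.4% and 3.23% did. The mitotic genes carried most of this: 12 of the 18 called higher with a promoter held both motifs, and those 12 are among the 18 genes with both in the whole higher group.

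The motifs had larger shares in the mitotic genes that were called than in those that were not, but many uncalled genes held them too. The difference was not tested. Of 91 mitotic-list genes not called higher 52.7% held TTTGAA, 58.2% CCAAT and 33.0% both, against 66.7%, 88.9% and 66.7% of the 18 called. KIF20A and CCNB1, with large differences, each held 2 CCAAT letters and 0 of TTTGAA in the window, and CENPE held 0 of either. Of 19 cholesterol genes with a promoter 78.9% held CCAAT and 5.26% held TTTGAA, and of 71 replication genes 53.5% and 5.63%. CCAAT was thus common in all these lists and TTTGAA in the mitotic ones. TTTGAA was the only spelling of CHR counted. No match says only that these letters are not in the window, and does not show that a gene lacks a CHR.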

How the data were processed

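RNA sequencing of K562 cells was used at 24 time points, 1 library each, grouped by the hour on the labels. The authors deposited FPKM values (fragments scaled to transcript length and to the mapped reads of a library), from reads aligned by STAR and quantified by Cufflinks and Cuffnorm. The submitters' processing notes name GRCh37, and versions were not given in the sources used here. Every gene in the table reached 1 FPKM at 12 or more time points. Read depth is unknown and counting error cannot be given. A second, cleaned table was not used here, and 0 columns of per-sample values were left without a sample.

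Differences were window means of log2(FPKM + 1), late minus middle, for genes averaging 1 FPKM or more; the pseudocount of 1 understates changes of low genes. Folds are ratios of mean FPKM. No test was run on single time points; limma 3.58.1 (R 4.3.3) was an alternative. Python 3.11.15, pandas 2.3.3, statsmodels 0.14.6 and matplotlib 3.10.9 were used, and scripts were tested on simulated data.

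Symbols came from a gene name table (794 of 12285 identifiers had none), gene type and GC content from GENCODE 29, and promoters from RefSeq by symbol (8925 of 12114 genes matched). Files' coordinates were not used. The comparison, the 36 gene lists and the rules were chosen with earlier results of these data known. Named genes are CCNB1, the 12 largest differences per direction among called protein-coding genes at 10 FPKM or more, and up to 4 called members of each list, or its most abundant member. Other list members and genes were named after their values were seen, and some members are not reported here. Alternatives were other thresholds, pseudocounts, filters, scalings and windows, removal of a GC trend, and leaving out each library.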

Additional observations from a re-analysis of the deposited data

Results flagged for a closer look

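Some called genes moved the opposite way between 34 and 36 h and 44 and 46 h, 24 h after the first comparison. They passed the same 1.5-fold threshold without overlap, here of 2 libraries against 2, which is easier to reach than with 3 against 3. The difference between the cycles was not tested, since each rests on single libraries. PLK1 was higher late in the first cycle (0.86 on the log2 scale) and lower 24 h later (-0.60). CDC20, the APC/C activator, went from 0.80 to -0.59, with 69.6 and 68.0 FPKM at 34 and 36 h and 48.3 and 42.4 FPKM at 44 and 46 h. CEBPB went from -0.65 to 0.72, where the first value rested on the 22 h library. PIM1 went from -0.73 to 0.78.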

How the results depend on the processing

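Against 186 higher and 100 lower genes, median centring gave 175 and 108, upper-quartile scaling 218 and 80, quantile normalization 149 and 117, and removal of the GC trend 178 and 69. These counts moved by less than 1.5 times. Those of the thresholds, pseudocount, filter and limma given next moved by more, as did the lower count of the shifted middle window. A 2-fold threshold gave 15 and 14, no fold threshold 2595 and 2398, a pseudocount of 0.1 386 and 174, and a minimum mean of 10 FPKM 60 and 51. A middle window of 10, 12 and 14 h gave 136 higher and 54 lower genes. Of these, 105 and 46 were among the 186 and 100. Limma with time points taken as replicates, which they are not, gave 1018 and 971. The cause of the smaller counts with the shifted middle window was not tested. Leaving out each library in turn gave 164 to 261 higher and 76 to 163 lower genes. The 163 came without 20 h and without 24 h, and without 22 h there were 164 and 76, of which 132 and 61 were among the calls with all libraries. Of 51 named genes with a call, 39 kept it in all 10 alternatives run on single genes. These 10 did not include the shifted windows, so calls lost there are not counted. The call was lost in at least 1 for SLC2A3, KIF18A, GTSE1, PSAT1, WARS1, BORA, HBA2, JUND, MYC, CEBPB, HBA1 and GP1BB. The median of the 2 megakaryocyte and platelet markers went from -0.72 to 0.31 without 22 h, through GP1BB. No paired analysis was possible because each time point has 1 library and no shared replicate numbers. With 3 libraries a window from 1 time course, differences between cultures or with hours in culture cannot be told apart from those between phases. Depth is unknown, and small differences have no error.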

Other observations

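Some large positive differences belonged to genes outside the rule for named genes, chosen after their values were seen. PIF1, a DNA helicase of telomeres and replication forks, had 3.37, 4.02 and 6.58 FPKM in the middle and 17, 12.9 and 11.3 FPKM in the late window (1.40, and 1.43 without 22 h). NBR2, a long RNA that shares a promoter region with BRCA1, had 13.3, 5.99 and 12.4 FPKM against 22.5, 36.7 and 23.6 FPKM (1.34). The small nucleolar RNA SNORD58C had 4.65, 6.32 and 9.05 FPKM against 18.3, 21 and 18.9 FPKM (1.45). Outside the windows both RNAs swung widely between libraries. At 26, 28 and 32 h NBR2 had 12.6, 32.4 and 4.83 FPKM and SNORD58C 2.69, 20.1 and 1.34 FPKM.

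A pair of abundant genes without a symbol or an annotation varied widely among the 6 libraries. ENSG00000280102 had 417, 127 and 114 FPKM in the middle window and 1332, 9771 and 148 FPKM in the late one, and ENSG00000281255 had 346, 101 and 95.9 FPKM against 843, 5510.1 and 125 FPKM. Neither was called, since the windows overlapped, and both were highest at 22 h among the 6 libraries. Outside them, ENSG00000280102 had 7810.5 FPKM at 28 h and 10275 FPKM at 30 h, and ENSG00000281255 had 4484 and 6158 FPKM.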
